A study of Homo sapiens with 6 samples.

Results

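Insulin-like growth factor 2 (*IGF2*) and the genes that receive, transmit or bind the IGF signal were examined in HCT116 cells that lack ZKSCAN3, a zinc finger transcription factor for which *IGF2* has been named as a target gene. The 10 genes were chosen by name from the 46427 genes of the count table: the ligand *IGF2*, the receptors *IGF1R*, *IGF2R* and *INSR*, the receptor substrates *IRS1* and *IRS2*, and the binding proteins *IGFBP2*, *IGFBP3*, *IGFBP4* and *IGFBP6*. HCT116 is an established human colorectal carcinoma line, and all cells grew in DMEM with fetal bovine serum. The *ZK3*-WT group consisted of 3 libraries of the parental line. The *ZK3*-KO group consisted of 3 libraries of cells in which CRISPR/Cas9 removed the *ZKSCAN3* start codon on both alleles, obtained after puromycin and single-cell selection. Differences due to the deletion and differences between a selected clone and its parental population cannot be told apart.

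IGF2 and IGF1 are secreted growth factors that bind the receptor tyrosine kinase IGF1R, and IGF2 also binds an isoform of the insulin receptor. Active receptors phosphorylate the docking proteins IRS1 and IRS2, which recruit PI3K and so lead to AKT, mTOR and, through nuclear exclusion, to the FOXO factors. IGF2R carries IGF2 to the lysosome without a kinase signal, and the IGFBP proteins hold IGFs in the extracellular space. In the colon, loss of *IGF2* imprinting and high *IGF2* expression are known from a subset of tumors.

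Between 60827060 and 69739215 reads were counted per library. Wherever 3 values follow each other for a genotype, they are replicates 1, 2 and 3 in that order. For *ZKSCAN3* itself, parental libraries gave 28.1, 23.4 and 19.8 CPM (counts scaled to TMM-normalized library sizes), against 25.4, 24.9 and 13.6 CPM in knockout libraries. Reads outside the deleted start codon do not check the genotype labels. *ZK3*-KO replicate 3 stood apart from the other *ZK3*-KO libraries, with a chi-square per degree of freedom of 349 and 543 against them, compared with between 41.5 and 95.1 for the other pairs of the same genotype, so for the 10 genes and the gene lists, calls that changed without it are also given. General epithelial markers were present, with *EPCAM*, *KRT8*, *KRT18*, *KRT19* and *CDH1* between 85.3 and 2332 CPM in every library. Of the colonic differentiation markers, *KRT20* did not exceed 1.84 CPM, *CDH17*, *VIL1* and *LGALS4* did not exceed 0.518 CPM, and *CEACAM5* was at 0. Among 11 markers of other cell types, *PTPRC* and *CD3E* were at 0 in every library, whereas *COL1A1* reached 98.8 CPM. Of the 5 tested markers, 2 had positive and 3 negative log2 fold changes, with a median of -0.09. The smooth muscle actin gene *ACTA2* was the 1 called, as higher in *ZK3*-KO cells (log2 fold change 1.09, FDR 0.0387), against 2.05% of all tested genes. Markers at 0 in all libraries of a genotype numbered 2 in *ZK3*-WT and 4 in *ZK3*-KO. The 11 markers summed to between 54.2 and 69.2 CPM in *ZK3*-WT and between 44.3 and 120.4 CPM in *ZK3*-KO libraries, and their part in the results was not tested.

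Of the 10 genes, 9 had enough reads to be tested, and 2 of these changed at a false discovery rate (FDR) of 0.05 adjusted over all 18366 tested genes, against 2.05% of all tested genes. *IRS1* rose 2.84-fold in *ZK3*-KO cells, where 0.817% of all tested genes passed as higher, and *IGFBP3* fell to near absence, where 1.23% passed as lower. *IGF2*, *INSR*, *IGF2R*, *IGFBP2* and *IGFBP6* did not pass the test, and neither did *IGF1R* or *IRS2* when all 6 libraries were used. The median log2 fold change of the 9 genes was -0.04, beside 0.02 for all tested genes. The genotypes did not overlap for 3 of the 9 genes (*IRS1*, *IRS2* and *IGFBP3*), compared with 26.6% of all tested genes. Without *ZK3*-KO replicate 3, 4 of the 9 genes passed (*IRS1*, *IGF1R*, *IRS2* and *IGFBP3*), compared with 15.1% of all genes tested in that fit.

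**Figure D1:**
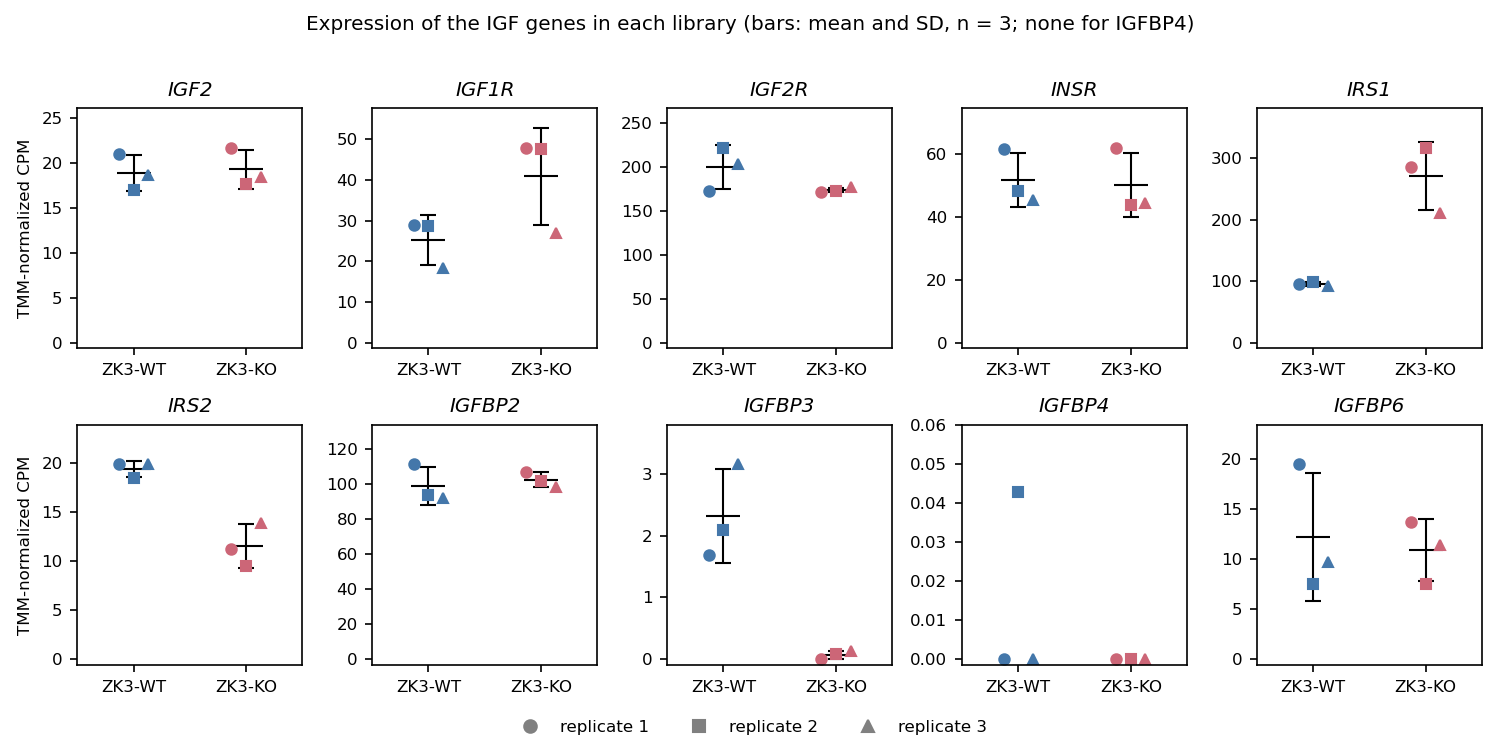
TMM-normalized CPM (linear axes from 0) of the 10 genes in each of the 6 libraries, with replicates as symbols and the mean and SD of 3 libraries as bars. *IRS1* lies between 91.7 and 99.2 CPM in *ZK3*-WT and between 211 and 317 CPM in *ZK3*-KO libraries, *IGFBP3* drops from at least 1.69 to at most 0.129 CPM, and the *IGF2* values of the genotypes overlap.

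*IGF2* (NCBI Gene 3481), the ligand, spans 2150342 to 2179621 of chromosome 11 (GRCh37, reverse strand). The parental libraries held 21.0, 17.0 and 18.6 CPM and the knockout libraries 21.7, 17.7 and 18.4 CPM. The groups overlapped almost completely, and replicate 1 was the highest library in both genotypes. The mean was 18.9 ± 1.99 CPM in *ZK3*-WT and 19.3 ± 2.14 CPM in *ZK3*-KO cells (SD, n = 3 each). Knockout over parental, the log2 fold change was 0.03 (FDR 0.946, standard error 0.16, in the quasi-likelihood test of edgeR), with a 95% interval from -0.35 to 0.41, which corresponds to a fold between 0.784 and 1.33. Each library held between 1136 and 1397 *IGF2* reads, and a difference smaller than this interval was not detectable with these replicates.

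The other genes of the *IGF2* locus were also without a call by edgeR over 6 libraries. *H19*, the noncoding RNA expressed from the opposite parental allele in normal tissue, was counted at 1.92 ± 0.818 CPM in *ZK3*-WT and 1.60 ± 0.777 CPM in *ZK3*-KO cells (SD, n = 3 each; log2 fold change -0.26, FDR 0.812 in edgeR's test). The antisense gene *IGF2-AS* lies from 2161731 to 2169896, inside the span of *IGF2*, with 0.405 ± 0.132 CPM in *ZK3*-WT and 0.497 ± 0.281 CPM in *ZK3*-KO cells (SD, n = 3 each; log2 fold change 0.29, FDR 0.811 in edgeR's test). The kit was stranded, but whether strand was used in counting is not stated, so a share of these reads may come from *IGF2*. The readthrough gene *INS-IGF2* shares exons with *IGF2* and is listed at 0 in every library, so reads of the shared exons cannot be told apart. Of 17 listed genes of 11p15.5, 12 were tested and none was called by edgeR, whereas 2 had an unadjusted p under 0.05 (18.4% of all tested genes) and DESeq2 called 1, *NAP1L4* (8.2% of all tested genes). Without *ZK3*-KO replicate 3, 2 passed, *NAP1L4* as higher (FDR 0.0181) and *SLC22A18* as lower (FDR 0.0220), compared with 15.1% of all genes. The median log2 fold change of the 12 genes was -0.10. Without that library, values were 0.092 for *H19* and -0.14 for *IGF2-AS*, with signs turned.

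The remaining ligands of this receptor family were not detected. *IGF1* and *INS* had no read in any library, and a count of 0 allows up to 3 reads per library by counting error. The receptors were expressed. *IGF1R*, the signaling receptor for both IGFs, spans 99191768 to 99507759 of chromosome 15 (forward strand). Its level was 29.0, 28.6 and 18.2 CPM in parental and 48.0, 47.6 and 27.0 CPM in knockout libraries. In both genotypes replicate 3 was the lowest library, and *ZK3*-KO replicate 3 lay within the *ZK3*-WT range. The log2 fold change was 0.69 (standard error 0.28, 95% interval 0.04 to 1.34), with an unadjusted p of 0.0400 and an FDR of 0.248 from edgeR's quasi-likelihood test. It was 0.92 (FDR 0.0191 in the same test) without *ZK3*-KO replicate 3 and 0.68 (FDR 0.0653) with the replicate number as a block.

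*INSR*, the insulin receptor on chromosome 19 (7112266 to 7294425, reverse strand), had 61.6, 48.3 and 45.5 CPM in parental and 62.2, 43.96 and 44.6 CPM in knockout libraries. The genotypes overlapped, with a log2 fold change of -0.04 (95% interval -0.51 to 0.42, FDR 0.934 from edgeR's test), and counts per gene do not separate the insulin receptor isoforms. *IGF2R*, the clearance receptor on chromosome 6 (160390114 to 160534539, forward strand), had 173, 222 and 204 CPM in parental and 172, 172 and 177 CPM in knockout libraries. The *ZK3*-KO values lay close together, around the lowest *ZK3*-WT library. The log2 fold change of *IGF2R* was -0.20 (95% interval -0.55 to 0.15, FDR 0.521 from edgeR's test). *INSRR*, the insulin receptor-related receptor, had 15, 8 and 11 reads in the parental libraries and none in the *ZK3*-KO libraries. This was too few for the test over 6 libraries, and it passed as lower without *ZK3*-KO replicate 3 (FDR 0.0222 in edgeR's test). *INSRR* was named after its values were seen.

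**Figure D2:**
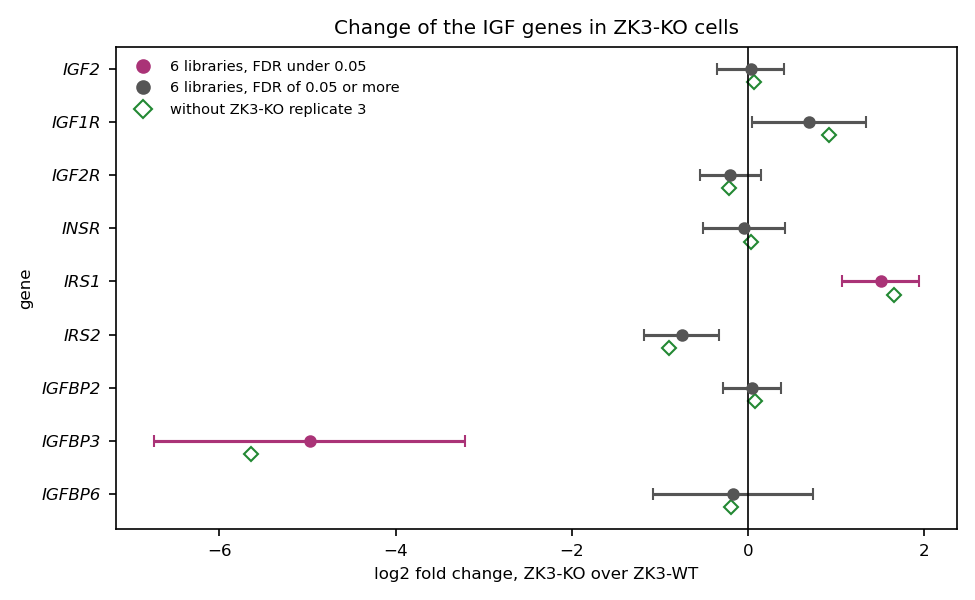
Log2 fold changes (*ZK3*-KO over *ZK3*-WT, horizontal axis) of the 9 tested genes from all 6 libraries, with 95% intervals, and open diamonds for the values without *ZK3*-KO replicate 3. *IRS1* at 1.51 and *IGFBP3* at -4.98 passed an FDR of 0.05, and the intervals of *IGF2*, *IGF2R*, *INSR*, *IGFBP2* and *IGFBP6* include 0.

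Of the receptor substrates, *IRS1* was called as higher, while *IRS2* had lower values that did not pass the test. *IRS1* (NCBI Gene 3667), the main docking protein of IGF1R, spans 227596028 to 227664536 of chromosome 2 (reverse strand). Parental cells gave 95.4, 99.2 and 91.7 CPM, against 286, 317 and 211 CPM in knockout cells. Every *ZK3*-KO library was far above all *ZK3*-WT libraries, and *ZK3*-KO replicate 3 was the lowest of the *ZK3*-KO group. The mean was 95.5 ± 3.77 CPM in *ZK3*-WT and 271 ± 54.8 CPM in *ZK3*-KO cells (SD, n = 3 each). The log2 fold change was 1.51 (standard error 0.19, 95% interval 1.07 to 1.94, FDR 0.0116 from edgeR's test), and the fold lay between 2.10 and 3.84. When single libraries were left out, the log2 fold change stayed between 1.38 and 1.66. The FDR then rose above 0.05 without *ZK3*-WT replicate 1 (0.0751), *ZK3*-WT replicate 2 (0.101), *ZK3*-WT replicate 3 (0.0930) or *ZK3*-KO replicate 1 (0.0747).

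*IRS2* (NCBI Gene 8660), a second substrate and a known FOXO target, spans 110405042 to 110438930 of chromosome 13 (reverse strand). The parental libraries held 19.8, 18.5 and 19.9 CPM and the knockout libraries 11.2, 9.52 and 13.9 CPM. All *ZK3*-KO libraries were lower than all *ZK3*-WT libraries, again with *ZK3*-KO replicate 3 closest to them. On the log2 scale the difference was -0.75 (standard error 0.18, 95% interval -1.18 to -0.32), with an unadjusted p of 0.00396 and an FDR of 0.0931 from edgeR's test, which did not pass. It passed without *ZK3*-KO replicate 3 (log2 fold change -0.90, FDR 0.00970) and with DESeq2 (-0.75, FDR 0.00613).

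On the per-length TPM scale, *IRS1* was 4.60 ± 0.368 times as abundant as *IRS2* in *ZK3*-WT and 23.1 ± 8.52 times as abundant in *ZK3*-KO libraries (SD, n = 3 each). Parental ratios were 4.49, 5.02 and 4.31 and knockout ratios 23.8, 31.2 and 14.2. *IRS1* was higher and *IRS2* lower in every *ZK3*-KO library, so the genotypes could not overlap in this ratio, which restates those values. The summed TPM of both substrates was 28.1 ± 1.23 in *ZK3*-WT and 64.1 ± 18.4 in *ZK3*-KO libraries (SD, n = 3 each). The TPM ratio of *IGF1R* to *INSR* was 0.363, 0.458 and 0.309 in parental and 0.599, 0.835 and 0.468 in knockout libraries. These ratios combine genes of the list and are given without a test.

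**Figure D3:**
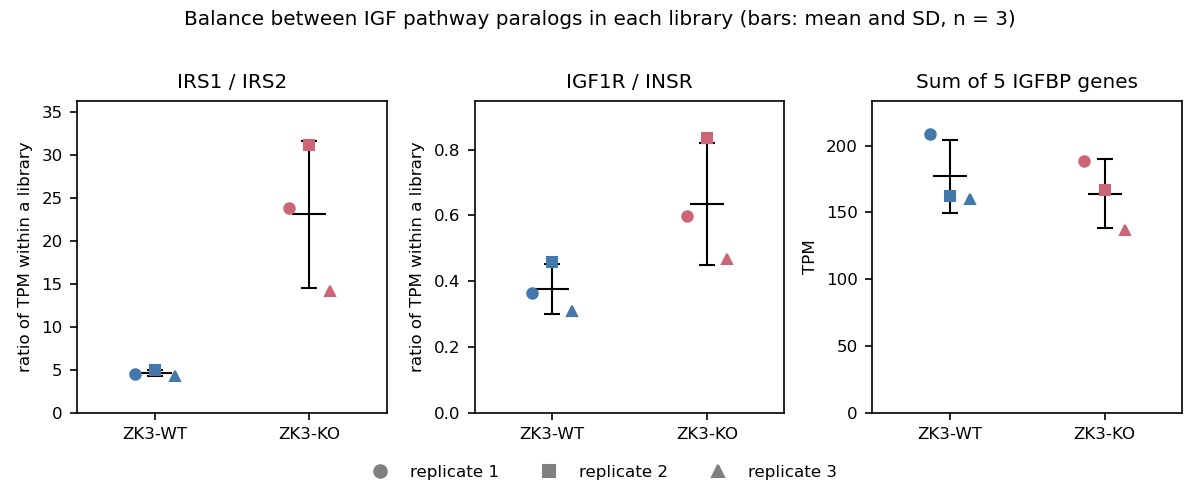
Ratio of *IRS1* to *IRS2* TPM, ratio of *IGF1R* to *INSR* TPM and summed TPM of the IGFBP genes in each library, on linear axes from 0. Bars give the mean and SD of 3 libraries per genotype. The sum covers *IGFBP2*, *IGFBP3*, *IGFBP4* and *IGFBP6*, whose number the panel title misstates. The substrate ratio, which restates the *IRS1* and *IRS2* values, is at most 5.02 in *ZK3*-WT and at least 14.2 in *ZK3*-KO libraries. The summed IGFBP level overlaps.

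The 250 bases before the RefSeq start of both substrate genes are shown because the differences of these paralogs had opposite signs. They lie on the reverse strand of GRCh37, for *IRS1* on chromosome 2 from 227664537 to 227664786 and for *IRS2* on chromosome 13 from 110438931 to 110439180. They are written 5′ to 3′ as the gene reads, and capitals mark the GC box GGGCGG or its reverse complement CCGCCC, which bind SP1-type factors.
IRS1: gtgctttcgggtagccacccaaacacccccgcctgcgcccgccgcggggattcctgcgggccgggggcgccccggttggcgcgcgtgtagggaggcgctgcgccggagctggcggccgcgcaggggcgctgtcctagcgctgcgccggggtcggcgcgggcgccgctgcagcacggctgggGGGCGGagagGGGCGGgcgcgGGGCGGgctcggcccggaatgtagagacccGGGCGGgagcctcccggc
IRS2: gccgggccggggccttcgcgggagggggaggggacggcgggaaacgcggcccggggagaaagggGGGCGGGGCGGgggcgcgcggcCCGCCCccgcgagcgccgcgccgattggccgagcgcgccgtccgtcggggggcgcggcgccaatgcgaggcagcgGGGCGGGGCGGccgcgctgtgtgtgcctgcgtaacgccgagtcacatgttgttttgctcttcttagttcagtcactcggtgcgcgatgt
The *IRS1* stretch held 4 GC boxes and 39 CpG dinucleotides, and the *IRS2* stretch held 5 GC boxes, some overlapping, and 42 CpG dinucleotides. Over 27303 RefSeq promoters of the same length, 42.3% held a GC box on either strand, and the median number of CpG dinucleotides was 11. Both stretches were thus GC-rich (80.8% and 76.4%, beside a median of 58.0%). Neither held the TATA box TATAAA (11.1% of promoters) or the FOXO core TGTTTAC (2.98% of promoters) on either strand. The search took these exact letters only, and variants of either motif were not counted. The table of promoters matched 9 of the 10 genes by symbol, without *IGF2*. All 9 held a GC box, with 7 to 48 CpG dinucleotides.

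*IGFBP2* was the most abundant binding protein gene. It spans 217497551 to 217529159 of chromosome 2 (forward strand), and its protein binds IGF2 in preference to IGF1. Its level was 112, 93.8 and 91.9 CPM in parental and 107, 102 and 98.5 CPM in knockout libraries. The genotypes overlapped (log2 fold change 0.05, 95% interval -0.28 to 0.38, FDR 0.886 from edgeR's test). *IGFBP6*, whose product has a marked preference for IGF2, spans 53491220 to 53496129 of chromosome 12 (forward strand). Parental cells gave 19.5, 7.48 and 9.71 CPM, against 13.7, 7.54 and 11.4 CPM in knockout cells. Replicate 1 was the highest and replicate 2 the lowest library in both genotypes. The log2 fold change of -0.17 had a wide 95% interval from -1.07 to 0.74 (FDR 0.853 from edgeR's test), and it was 0.34 without *ZK3*-WT replicate 1.

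*IGFBP3* (NCBI Gene 3486), the main IGF carrier of serum and a known p53 target, spans 45951844 to 45961473 of chromosome 7 (reverse strand). The parental libraries held 1.69, 2.10 and 3.16 CPM and the knockout libraries 0, 0.0865 and 0.129 CPM. Behind these values stood 106, 147 and 221 parental reads and 0, 6 and 8 knockout reads. The *ZK3*-KO libraries were thus close to the limit of 3 reads that a count of 0 allows. On the log2 scale *IGFBP3* differed by -4.98 (standard error 0.76, 95% interval -6.75 to -3.21, FDR 0.0254 from edgeR's test), a fall of 31.5-fold with an interval from 9.23 to 107. On the log2(TPM + 1) scale, where low values are compressed, it was -1.43 (FDR 0.00632 from limma). The direction held in all 6 fits that left out a library (-5.64 to -4.40), whereas the FDR rose above 0.05 without *ZK3*-WT replicate 1 (0.0938), *ZK3*-WT replicate 2 (0.140), *ZK3*-WT replicate 3 (0.119) or *ZK3*-KO replicate 2 (0.0651).

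The 250 bases before the RefSeq start of *IGFBP3* are shown because reads of this gene were almost lost. They lie on the reverse strand of chromosome 7 of GRCh37 from 45960872 to 45961121, inside the span of the GENCODE gene, with capitals for the GC box as above.
IGFBP3: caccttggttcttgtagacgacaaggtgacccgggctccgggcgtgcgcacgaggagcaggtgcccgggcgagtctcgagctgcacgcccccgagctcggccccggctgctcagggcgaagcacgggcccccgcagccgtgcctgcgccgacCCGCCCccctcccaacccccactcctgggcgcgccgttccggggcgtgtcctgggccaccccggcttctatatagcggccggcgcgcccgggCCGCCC
This stretch held 2 GC boxes and 32 CpG dinucleotides at a GC content of 76.0%. The upper quartile over all promoters was 23.0 CpG dinucleotides.

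The remaining binding protein genes had low levels, and *IGFBP1*, *IGFBP4* and *IGFBP7* were at or near the limit of detection. *IGFBP4*, on chromosome 17 from 38599702 to 38613977, had 3 reads in *ZK3*-WT replicate 2 and none in the other libraries, so it was not tested. *IGFBP1* had 2 reads in *ZK3*-WT replicate 2 alone, and *IGFBP7* had 3 reads each in *ZK3*-KO replicates 2 and 3. *IGFBP5* was counted at 0.680 ± 0.178 CPM in *ZK3*-WT and 0.585 ± 0.206 CPM in *ZK3*-KO cells (SD, n = 3 each; log2 fold change -0.22, FDR 0.806 in edgeR's test). Of 13 listed genes of IGF binding and IGFBP proteolysis outside the 10 genes, 5 were tested, *IGFBP5* included, and none was called by edgeR or DESeq2. An unadjusted p under 0.05 was reached by 1 of the 5, against 18.4% of all tested genes. Only 1, *STC2*, passed without *ZK3*-KO replicate 3, as lower, compared with 15.1% of all genes. The summed TPM of *IGFBP2*, *IGFBP3*, *IGFBP4* and *IGFBP6* was 177 ± 27.4 in *ZK3*-WT and 164 ± 25.9 in *ZK3*-KO libraries (SD, n = 3 each), of which *IGFBP2* made up between 78.8% and 90.0% in every library.

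Ordered by mean TPM in *ZK3*-WT libraries, *IGFBP2* was highest at 148 ± 14.7, followed by *IGF2R* at 30.0 ± 4.28, *IGFBP6* at 27.1 ± 13.9, *IRS1* at 23.1 ± 1.34, *INSR* at 11.6 ± 1.81, *IGF2* at 7.66 ± 0.698, *IRS2* at 5.02 ± 0.108, *IGF1R* at 4.37 ± 1.09, *IGFBP3* at 1.86 ± 0.607 TPM (SD, n = 3 each) and *IGFBP4*. Neighbours in this order whose libraries overlapped were *IGF2R* with *IGFBP6*, *IGFBP6* with *IRS1*, and *IRS2* with *IGF1R*. In *ZK3*-KO libraries *IRS1* was second at 61.4 ± 18.6 TPM, above *IGF2R* at 24.0 ± 2.57 TPM, and *IGF1R* at 6.67 ± 2.58 TPM stood above *IRS2* at 2.71 ± 0.246 TPM (SD, n = 3 each).

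No gene around *IRS1* or *IGFBP3* was called over 6 libraries. Within 1 Mb on either side, 6 tested genes lay near *IRS1* and 8 near *IGFBP3*. None of them was called by edgeR, DESeq2 or limma. An unadjusted edgeR p under 0.05 was reached by 1 near *IRS1* and by 0 near *IGFBP3*, against 18.4% of all tested genes. In the fit without *ZK3*-KO replicate 3, *RHBDD1* near *IRS1* passed as lower and none near *IGFBP3* passed, compared with 15.1% of all genes. Their median log2 fold changes were 0.03 and 0.30, and those of all tested genes on chromosomes 2 and 7 were 0.01 and 0.04. Of 25 tested neighbours of *IGF2*, none was called by edgeR, 3 had an unadjusted p under 0.05 (18.4% of all tested genes), and DESeq2 called 1 (8.2%). Without *ZK3*-KO replicate 3, 4 of 26 passed, compared with 15.1% of all genes. Among the neighbours of the other genes, edgeR called *ARRDC4* near *IGF1R*, 3 of 39 near *IGFBP4* and 2 of 43 near *IGFBP6*, all lower. The share called among all tested genes was 2.05%, with 1.23% called as lower. The 8 neighbours of *IGF1R* had a median log2 fold change of -0.69, beside 0.05 for chromosome 15. Of these 8, 4 had an unadjusted edgeR p under 0.05 (18.4% of all tested genes) and DESeq2 called 2 (8.2%). Without *ZK3*-KO replicate 3, 2 of the 8 passed, both lower. In that fit 4 passed as higher and 8 as lower of 41 near *IGFBP4*. Near *IGFBP6*, 1 passed as higher and 10 as lower of 44, compared with 15.1% of all genes.

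Expression profiles were compared by the mean absolute difference between log2(CPM + 0.1) profiles over the 6 libraries, each centred on its own mean. Only genes with a mean log2(CPM + 0.1) of at least 1 were compared. Among 13070 such genes, those closest to *IGF2* were *SCPEP1* (0.0325), *C3orf18* (0.0384) and *GLUD1* (0.0388). The closest to *IRS1* were *EOMES* (0.108), *SYK* (0.117) and *DPP4* (0.123). Among 13071 such genes, the closest to *IGFBP3* were *S100A4* (0.321), *CCDC9B* (0.430) and *LIPG* (0.463). *IGFBP3* itself lay below that mean, so it was set against genes of higher expression only. Its knockout values, at most 0.129 CPM, were near the added 0.1. These values describe the same 6 libraries as the comparison and carry no test.

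The wider pathway was described with lists of 125 other genes, of which 102 were tested. In *ZK3*-KO cells 1 of the 102, *FOXO4*, was called by edgeR at an FDR of 0.05, against 2.05% of all tested genes. The median log2 fold change of the 102 genes was -0.03, and genotypes did not overlap for 31 of them, where the share among all tested genes was 26.6%. With the replicate number as a block 4 genes passed, adding *BCL6*, *LIN28A* and *SESN3*, against 2.51% of all genes, and with DESeq2 8 passed, against 8.2%. Without *ZK3*-KO replicate 3, 22 of 103 passed (9 higher and 13 lower), compared with 15.1% of all genes.

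*FOXO4*, one of the transcription factors that AKT excludes from the nucleus, spans 70315701 to 70323382 of chromosome X (forward strand). It fell from 16.8, 16.3 and 15.3 CPM in parental libraries to 7.11, 4.67 and 8.30 CPM in knockout libraries. The genotypes did not overlap, and the log2 fold change was -1.27 (standard error 0.23, FDR 0.0454 in edgeR's test). The log2 fold change stayed between -1.45 and -1.06 when single libraries were left out, whereas the FDR was above 0.05 (up to 0.210) except without *ZK3*-KO replicate 3 (0.00447). Of 15 FOXO factors and FOXO target genes, 14 were tested, 10 of them had negative values, and 5 were lower in every *ZK3*-KO library, where the share among all tested genes was 13.8%. Their median log2 fold change was -0.37, and *TXNIP* is listed at 0 in every library. Without *ZK3*-KO replicate 3, 7 of the 14 passed, in both directions, compared with 15.1% of all genes. *FOXO1* (FDR 0.0496), *SESN1* (FDR 0.0113) and *PDK4* (FDR 0.0320) passed as higher in that edgeR fit, and *FOXO4*, *BCL6*, *KLF15* and *TRIB1* as lower. *BCL6*, a transcriptional repressor, was counted at 30.3 ± 5.54 CPM in *ZK3*-WT and 13.3 ± 4.05 CPM in *ZK3*-KO cells (SD, n = 3 each; log2 fold change -1.18, FDR 0.0672 in edgeR's test, 0.0314 with the block and 0.0233 without *ZK3*-KO replicate 3). *SESN3*, a sestrin that restrains mTORC1, differed by -1.09 on the log2 scale (FDR 0.188 with edgeR, 0.0432 with the block and 0.0753 without *ZK3*-KO replicate 3).

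Of 11 regulators of *IGF2* mRNA and imprinting, 9 were tested, 8 had positive values, and the median log2 fold change was 0.66. Without *ZK3*-KO replicate 3, 6 had positive values and the median was 0.35. The median gene over 6 libraries, the chromatin protein gene *HMGA1*, had 4412 CPM in that library against 1765 and 1310 CPM in the other knockout libraries, and its log2 fold change without it was -0.034. None of the 9 was called by edgeR, whereas 3 had an unadjusted p under 0.05 (18.4% of all tested genes). DESeq2 called 2, *HMGA2* and *LIN28A* (8.2% of all tested genes), and 3 passed without *ZK3*-KO replicate 3 (15.1% of all genes). *IGF2BP3*, an RNA-binding protein that acts on *IGF2* mRNA, had 118, 121 and 121 CPM in parental and 285, 195 and 132 CPM in knockout libraries. All *ZK3*-KO libraries were higher, over a wide range (log2 fold change 0.77, FDR 0.197 in edgeR's test and 0.00682 without *ZK3*-KO replicate 3). Its paralogs *IGF2BP1* (log2 fold change 0.20, FDR 0.801) and *IGF2BP2* (0.06, FDR 0.913) overlapped between the genotypes. *HMGA2*, a chromatin protein, averaged 192 ± 29.0 CPM in *ZK3*-WT and 338 ± 64.4 CPM in *ZK3*-KO cells (SD, n = 3 each; log2 fold change 0.81, FDR 0.0927 in edgeR's test and 0.0247 without *ZK3*-KO replicate 3). *LIN28A*, an RNA-binding inhibitor of let-7 maturation, averaged 1.07 ± 0.284 CPM in *ZK3*-WT and 0.134 ± 0.126 CPM in *ZK3*-KO cells (SD, n = 3 each; log2 fold change -2.99, FDR 0.0639 in edgeR's test, 0.0308 with the block and 0.0205 without *ZK3*-KO replicate 3).

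The lists of downstream signaling genes had no call by edgeR with all 6 libraries. An unadjusted p under 0.05 was reached by 4 PI3K, AKT and mTOR genes, 2 RAS and MAPK genes and 2 adaptor and feedback genes, each a smaller share than the 18.4% among all tested genes. Of 27 PI3K, AKT and mTOR genes, 12 were higher and 15 lower, with a median log2 fold change of -0.02. The median was 0.04 without *ZK3*-KO replicate 3, with 18 higher and 9 lower. In that fit 1 was called, compared with 15.1% of all genes. Of 16 RAS and MAPK genes, 9 were higher and 7 lower, with a median of 0.12. That median turned to -0.16 without *ZK3*-KO replicate 3, where 5 of the 16 passed, 2 as higher and 3 as lower, compared with 15.1% of all genes. The 2 higher genes were *ARAF* and *NRAS*, and the 3 lower genes were *DUSP4*, *DUSP5* and *DUSP6*, phosphatases that inactivate MAP kinases. Of 18 tested adaptor and feedback genes, 7 were higher and 11 lower, with a median of -0.13. Of these, 2 passed without *ZK3*-KO replicate 3, *GRB10* and *SOCS3*, compared with 15.1% of all genes. With DESeq2, *GSK3A*, *ARAF* and *SOCS3* passed, 1 in each of these lists, against 8.2% of all tested genes. *SOCS3*, a feedback inhibitor of receptor signaling that also targets the IRS proteins, had 30.7, 27.0 and 27.7 CPM in parental and 10.8, 10.2 and 21.8 CPM in knockout libraries. Its log2 fold change was -0.996 (FDR 0.150) over 6 libraries and -1.43 (FDR 0.00115) without *ZK3*-KO replicate 3, both in edgeR's test. *BCL6*, *SESN3*, *HMGA1*, *HMGA2*, *LIN28A*, *SOCS3* and the genes named as called by DESeq2, near another gene or without *ZK3*-KO replicate 3 were named after their values were seen.

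**Figure D4:**
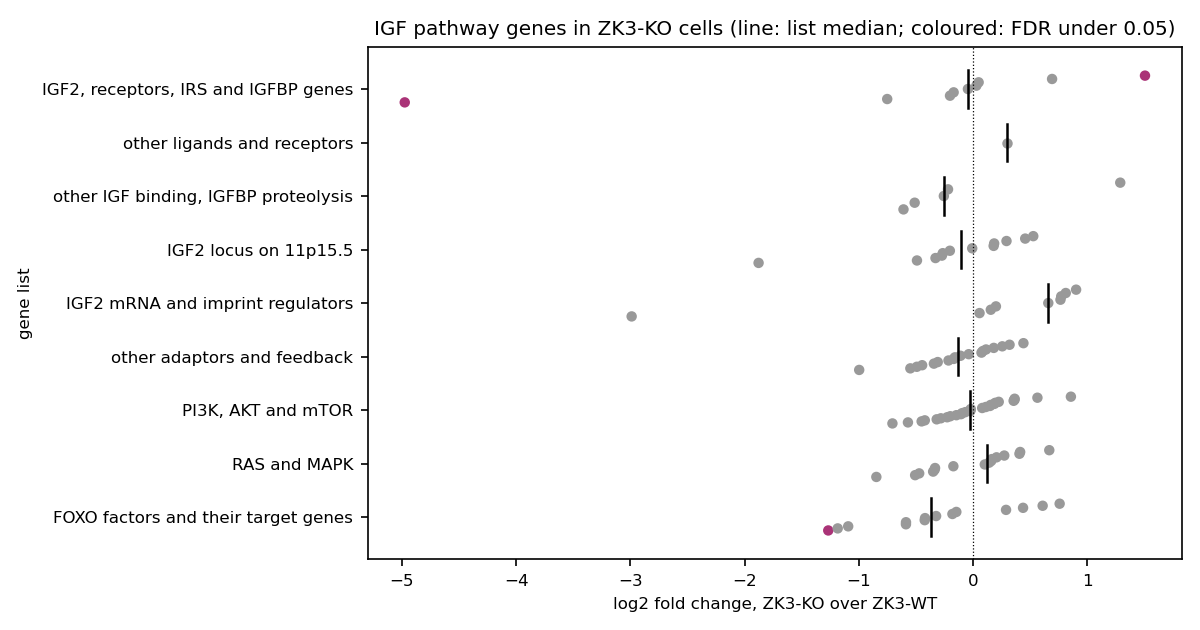
Log2 fold changes (*ZK3*-KO over *ZK3*-WT, horizontal axis) of the tested genes of each list (vertical axis), with 1 point per gene, a line at each list's median and colour for an FDR below 0.05. Coloured points are *IRS1*, *IGFBP3* and *FOXO4*, and the medians lie between -0.37 for the FOXO list and 0.66 for the *IGF2* regulators.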

How the data were processed

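Stranded poly(A) RNA libraries of biological triplicates were sequenced from the parental HCT116 line and its *ZK3*-KO derivative. The authors deposited raw read counts per gene, with FPKM and TPM values per library. FPKM values deposited by the authors were not used. TPM values, scaled by the authors for length, served for levels between genes and 1 alternative. The submitters' processing notes name Bowtie2 2.2.5 and hg19. The methods name Ensembl, but the table lists NCBI Gene identifiers.

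Tests on the counts used edgeR 4.0.16 under R 4.3.3. The filter filterByExpr left 18366 genes, TMM factors ranged from 0.910 to 1.03, and the quasi-likelihood test compared genotypes over 6 libraries, with Benjamini-Hochberg adjustment. Alternatives used DESeq2 1.42.0, limma 3.58.1 on log2(TPM + 1), other factors and filters, a replicate block and each library left out. Scripts were tested on simulated data. Deviations of libraries of equal number were positively correlated across genes (0.294, 0.112 and 0.449), beside -0.343 to 0.209 for unlike numbers. The value of replicate 2, 0.112, lay within the range of unlike numbers. Blocked values are given where they change a call. Members and lists were chosen with earlier results of these data known. Named genes were all members, fixed pathway genes, list genes past the FDR and the 3 closest profiles. Gene positions came from GENCODE v44lift37 and promoters from RefSeq, matched to GRCh37.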

Additional observations from a re-analysis of the deposited data

How the results depend on the processing

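The number of genes past an FDR of 0.05 was 376 with edgeR and 1506 with DESeq2, and between 49 and 2858 when single libraries were left out. The share of these genes that was higher in *ZK3*-KO cells was 39.9% (150 higher and 226 lower), and 23.0% (88 higher and 294 lower) for limma on log2(TPM + 1). The median log2 fold change of all genes was 0.02 in edgeR's fit and -0.08 on log2(TPM + 1). Of the IGF genes 2 passed, 3 with DESeq2, 1 with at least 10 reads in every library (where *IGFBP3* was not tested), and between 0 (without any one *ZK3*-WT library) and 4 (without *ZK3*-KO replicate 3) when single libraries were left out. Of the other pathway genes 1 passed, 8 with DESeq2, 0 with all genes of at least 1 read, and between 0 and 22 when single libraries were left out.

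The replicate block gave 461 genes, 2 IGF genes and 4 other pathway genes, and it changed the call of no IGF gene, and among the other pathway genes that of *BCL6*, *LIN28A* and *SESN3*. *IRS2* passed with DESeq2 (-0.75). *IGF2* changed sign with library totals alone (-0.049) and on log2(TPM + 1) (-0.13), as did *IGFBP2* (-0.030 and -0.070) and *IGF2BP2* (-0.034 and -0.10). Across fits without 1 library, log2 fold changes ranged from -0.056 to 0.11 for *IGF2*, 0.50 to 0.92 for *IGF1R*, -0.22 to 0.10 for *INSR*, -0.29 to -0.12 for *IGF2R*, 1.38 to 1.66 for *IRS1*, -0.90 to -0.63 for *IRS2*, -0.0019 to 0.14 for *IGFBP2*, -5.64 to -4.40 for *IGFBP3*, -0.43 to 0.34 for *IGFBP6*, -0.29 to 0.086 for *ZKSCAN3*, -0.58 to 0.12 for *H19*, -0.14 to 0.67 for *IGF2-AS*, -0.17 to 0.37 for *IGF2BP1* and -0.11 to 0.17 for *IGF2BP2*. Of 116 member values under alternatives, 93 kept their direction and their side of the threshold. The causes of the other changes were not tested. *IGFBP3*, with at most 8 reads in a *ZK3*-KO library, is limited by depth.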
